A study of Mus musculus with 15 samples.

Results

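The genes described here make, take up, sense and export cholesterol: 36 named genes of the 55487 mouse genes in the 2 deposited count tables, chosen by symbol. They were placed in 5 arms by the role of their products: 8 enzymes of the mevalonate arm, 11 enzymes of the sterol arm, 4 genes of SREBP control, 8 genes of uptake and handling, and 5 genes of efflux and its LXR receptors. RNA had been sequenced from erythroid progenitors of mouse fetal liver at stage E12.5. By its title, the study is about a defect of lipid metabolism in Diamond Blackfan anemia, a congenital disorder in which too few red cells are made. Group 1 of mice comprised 3 wildtype and 3 Rpl5 mutant libraries, labelled as polyA RNA. From group 2 came 9 libraries labelled as total RNA, 3 each of wildtype, mutant and low-yield mutant, and the labels do not define "low-yield". The Rpl5 product belongs to the large subunit of the ribosome. The mice of both groups are of the strain 129S6/SvEvTac; the sample sheet of group 2 gives the mutant genotype as Rpl5plusSkax23Jus, while that of group 1 gives only WT or M. The sources used here do not say how the progenitors were isolated, or whether the 3 libraries of a group come from separate embryos, so p-values measure only the spread between these libraries. Each group of mice was compared within itself, because its kind of RNA differed.

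Cells build cholesterol from acetyl-CoA. The mevalonate arm makes isoprenoid units from it, and the sterol arm joins these into squalene, closes the rings and trims lanosterol to cholesterol. Transcription of most of these enzymes is driven by SREBP2, encoded by Srebf2, which SCAP carries to the Golgi for cleavage when membrane sterol is low and which the INSIG proteins hold back in the endoplasmic reticulum when sterol is plentiful. Sterol surplus, sensed as oxysterols, activates the LXR receptors, which raise the export pumps ABCA1 and ABCG1 and the ubiquitin ligase MYLIP. Dividing erythroid precursors need sterol for new membrane, and the red cell membrane is rich in cholesterol.

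Promoters are printed for 4 genes that the results turn on: Hmgcs1, the only matched member whose promoter window held the sterol regulatory element searched; Mvd and Pmvk, successive enzymes whose transcripts differed in opposite directions between genotypes; and Insig1, which fell in all 3 comparisons with wildtype. Each sequence is the 250 bases before a RefSeq transcription start (build GRCm38.p6), read 5′ to 3′ on the gene's strand: chr13:119690101-119690350 on the plus strand for Hmgcs1, chr8:122443423-122443672 on the minus strand for Mvd, chr3:89454291-89454540 on the plus strand for Pmvk, and chr5:28071162-28071411 on the plus strand for Insig1. Pmvk has 2 starts in the table; the one printed is listed first and is the first base of the gene in the annotation, and the window of the other, chr3:89459321-89459620, holds 0 NF-Y boxes. Capitals mark the NF-Y box CCAAT on either strand (ATTGG when it lies on the other strand) and, in Hmgcs1, the sterol regulatory element TCACCCCAC, which starts 137 bases before the transcription start.
Hmgcs1: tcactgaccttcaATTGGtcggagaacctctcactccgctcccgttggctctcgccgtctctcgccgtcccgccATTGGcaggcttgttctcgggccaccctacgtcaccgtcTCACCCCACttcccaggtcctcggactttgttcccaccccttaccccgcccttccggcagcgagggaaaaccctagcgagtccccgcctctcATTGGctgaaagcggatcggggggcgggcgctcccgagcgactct
Mvd: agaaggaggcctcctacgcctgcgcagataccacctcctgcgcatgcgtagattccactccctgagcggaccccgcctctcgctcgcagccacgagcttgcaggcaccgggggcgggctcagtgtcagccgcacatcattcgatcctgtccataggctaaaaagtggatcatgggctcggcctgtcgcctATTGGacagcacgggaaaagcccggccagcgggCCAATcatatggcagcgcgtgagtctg
Pmvk: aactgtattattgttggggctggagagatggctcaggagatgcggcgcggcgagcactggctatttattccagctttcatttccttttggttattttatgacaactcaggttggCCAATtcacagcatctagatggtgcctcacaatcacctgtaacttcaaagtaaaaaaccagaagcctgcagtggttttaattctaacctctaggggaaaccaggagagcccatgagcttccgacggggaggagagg
Insig1: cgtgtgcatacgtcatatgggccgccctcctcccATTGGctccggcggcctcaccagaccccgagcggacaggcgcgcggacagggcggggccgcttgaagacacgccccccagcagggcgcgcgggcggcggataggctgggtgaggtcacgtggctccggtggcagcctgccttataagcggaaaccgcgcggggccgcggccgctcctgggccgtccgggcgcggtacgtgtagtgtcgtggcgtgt
The Hmgcs1 stretch holds 3 NF-Y boxes, Mvd 2, and Pmvk and Insig1 1 each.

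The RefSeq promoter table held 300-base windows (250 before and 50 after the start) for 29 of the 36 members, 39 windows in all, and a gene was counted when any of its windows held a motif. Fdps, Fdft1, Sqle, Scarb1, Npc1, Stard4 and Abcg1 were not matched. The NF-Y box CCAAT was found on either strand in 15 of 16 matched synthesis enzymes (93.8%) and in 8 of 13 other members (61.5%), against 41.1% of the 27025 genes of the table and 43.6% of the 10088 of them tested in group 2. Pmvk, Dhcr7, Insig2 and Vldlr had it in 1 window and not in another. The GC box GGGCGG stood in 14 of 16 synthesis genes (87.5%) and 10 of 13 others (76.9%), against 38.2% of all genes and 68% of tested ones. The sterol regulatory element, searched as TCACNCCAC, was found in 1 of 29 members (3.45%), against 1.44% of all genes and 1.39% of tested ones. The GATA motif AGATAA was in 0 of 16 synthesis genes and in 2 of 13 others (15.4%), against 12.7% of all genes and 8.02% of tested ones. The LXR motif DR4, the half-site AGGTCA repeated with 4 bases between, was in 0 of 29 members, in 0.0148% of all genes and in 0 of the tested ones. No motif searched contains another. All were searched on both strands, matches are descriptions of letters, and a missing match says nothing beyond this window.

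Total counts were 48510828 to 58513669 per library in group 1 and 24954324 to 44827821 in group 2. Values below are CPM, counts scaled to the library total with TMM factors, 3 libraries to a group, and a gene is called when its adjusted p is under 0.05 in edgeR's quasi-likelihood test over all genes tested. Rpl5 itself stood at 656, 668 and 744 CPM in the wildtype and 520.5, 561 and 570.4 CPM in the mutant libraries of group 1. Rpl5 in group 2 stood at 324, 303 and 374 CPM in the wildtype, 232, 248 and 248 CPM in the mutant and 243, 219 and 278 CPM in the low-yield mutant libraries, and it was lower in the mutant libraries in all 3 comparisons with wildtype. All 9 erythroid markers reported (Klf1, Epor, Gata1, Tfrc, Alas2, Slc4a1, Hba-a1, Hbb-bt and Ermap) were detected in every group, and their summed level was 4225 to 5129 CPM in wildtype against 2706 to 2798 CPM in mutant libraries of group 1. In group 2 that sum was 4714 to 7678 CPM in wildtype, 3543 to 3961 CPM in mutant and 3213 to 3981 CPM in low-yield mutant libraries. Of these 9 markers, 8 fell in group 1, 3 in the mutants and 6 in the low-yield mutants of group 2, and 0 rose. The shares of all genes called lower there were 6.78%, 2.95% and 5.86%. Megakaryocyte markers (6 genes) summed to 13.4 to 16.3 CPM in wildtype, 22.5 to 25.2 in mutant and 32.8 to 45.5 in low-yield libraries of group 2, and endothelial markers (5 genes) to 0.896 to 1.85, 3.20 to 5.56 and 6.06 to 9.44. In group 1 the megakaryocyte sum was 15.9 to 25.6 CPM in wildtype and 22.3 to 37.7 CPM in mutant libraries, which overlapped, and the endothelial sum was 1.91 to 4.13 and 3.52 to 9.29 CPM, which overlapped too. Among these markers of group 1, Gp5 was called higher, while Itga2b and Pecam1 were higher in every mutant than in every wildtype library, Gp9 was lower in every one, and none of these 3 were called. Hepatocyte markers (11 genes) summed to 31.3 to 59.0 CPM in wildtype and 7.25 to 20.4 CPM in mutant libraries of group 1, and to 9.74 to 71.7 CPM in wildtype against 10.2 to 46.8 and 39.2 to 46.8 CPM in group 2. The part of these shifts in the cholesterol results was not tested.

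In wildtype progenitors, the export pumps Abca1 and Abcg1 stood among the 5 lowest of the 36 members in level per exon length, at ranks 34 and 32 in group 1 and 33 and 32 in group 2. The arms that make cholesterol and sense it were spread over the order. Ranks of mevalonate arm genes ran between 1 and 23 (group 1) and between 5 and 24 (group 2). Those of sterol arm genes ran between 9 and 30 in both, and those of SREBP control between 5 and 25 and between 1 and 28. In group 1 the highest members were Idi1, the isopentenyl diphosphate isomerase, at 27.3 ± 1.5 CPM per kb (SD, n = 3), Pmvk at 25.0 ± 2.2 and Acat2 at 22.7 ± 2.0 CPM per kb, and each mean ± SD overlapped the next. In group 2 the order was led by Srebf2 at 31.9 ± 0.52, Nr1h2 at 25.8 ± 1.3 and Scarb1 at 21.9 ± 0.83 CPM per kb, which did not overlap each other. At the low end of both groups stood Abcg1, Abca1, Soat1 and Nr1h3, between 0.0694 and 0.588 CPM per kb. Vldlr, a lipoprotein receptor, had 0 to 11 counts per library and was at 0 in 5 of 15, so it alone failed the filter on low counts. The other 35 members were tested in every comparison; the least abundant of them, Nr1h3, had 12 to 43 counts per library. Between Nr1h2, the LXRβ receptor, and Nr1h3, the LXRα receptor, the per-length level in group 2 wildtype differed from 25.8 ± 1.3 to 0.221 ± 0.072 CPM per kb.

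**Figure D1:**
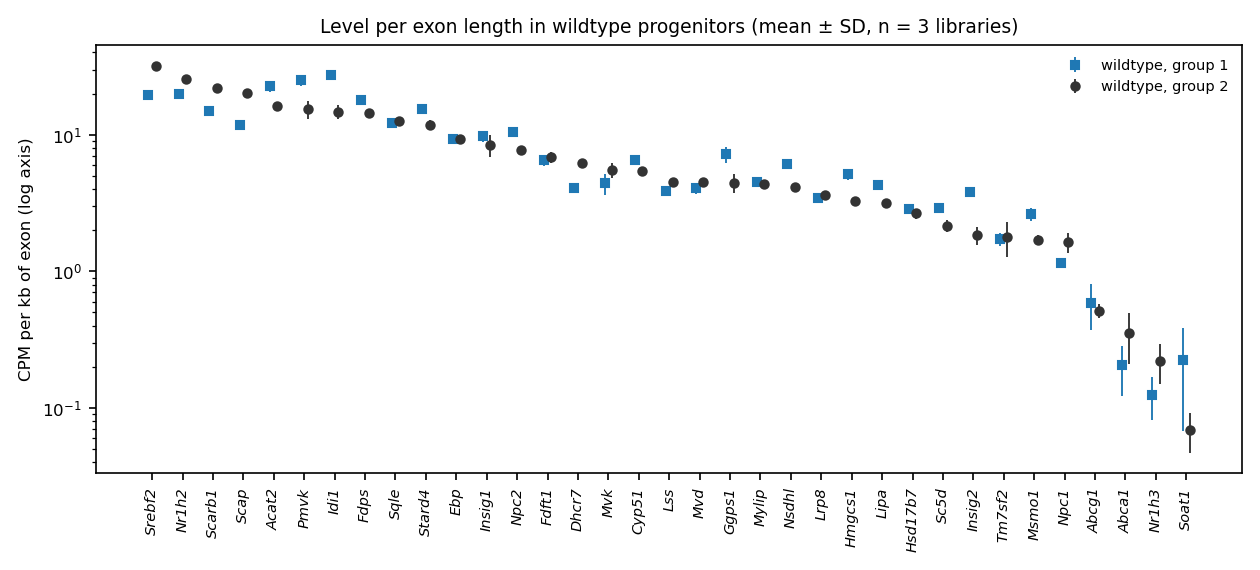
Level of each tested member in wildtype progenitors, as CPM per kilobase of exon on a log axis (mean and SD over 3 libraries; squares, group 1; circles, group 2), ordered by group 2. Srebf2, Nr1h2 and Scarb1 lead group 2, and the LXR targets Abca1 and Abcg1 lie with Nr1h3 and Soat1 at the right end.

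Most tested members had log2 fold changes below 0 in the mutants, most of them small, and each of the 5 arms held calls in group 1 and in the low-yield mutants; in the group 2 mutants the sterol arm and the efflux and LXR arm held 0. In group 1, 7 of 35 members fell and 0 rose: Pmvk, Fdps, Sqle, Insig1, Scarb1, Nr1h2 and Mylip. Over all genes of that comparison 12.6% were called, 6.78% lower and 5.79% higher, and the members' shares were 20% and 0%. In group 2, 3 members fell in the mutants (Fdps, Insig1 and Scarb1) and 2 rose (Mvd and Soat1), 8.57% and 5.71% of 35, against 2.95% and 3.32% of all genes (6.27% in either direction). In the low-yield mutants 7 fell (Pmvk, Fdps, Sqle, Insig1, Srebf2, Scarb1 and Mylip) and 3 rose (Mvd, Fdft1 and Soat1), 20% and 8.57%, against 5.86% and 6.68% of all genes. These are bulk libraries, in which fewer cells of a type and less RNA per cell cannot be told apart. The 2 group 2 comparisons share their wildtype libraries.

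Fitted over 12 libraries, wildtype and mutant of both groups with a term for the mouse group, 14 of 35 members were called. Hmgcs1, Mvd and Lipa rose, and Mvk, Pmvk, Fdps, Sqle, Cyp51, Ebp, Insig1, Scarb1, Stard4, Nr1h2 and Mylip fell, which is 8.57% higher and 31.4% lower, against 9.8% of all genes in each direction and 19.6% in both. The median log2 fold change of the members was -0.15 in group 1, -0.075 in the group 2 mutants, -0.13 in the low-yield mutants and -0.13 over both groups. Without mutant replicate 3 the value of the group 2 mutants was smaller in size, as given below. The median over all genes lay between -0.0096 and 0.0075 in these comparisons. Below 0 were 26, 20, 24 and 26 of the 35 members in that order (74.3%, 57.1%, 68.6% and 74.3%), against 48.9%, 51.3%, 50.4% and 50.1% of all genes. Wildtype and mutant libraries did not overlap for 17 lower and 4 higher members in group 1, where 16.6% and 15% of all genes separated that way. In group 2, 10 lower and 5 higher members separated in the mutants (all genes, 11.8% and 11.5%) and 10 lower and 7 higher in the low-yield mutants (14.6% and 15.3%).

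The number called depended on single libraries. In group 1 it was 3 without wildtype replicate 2 or 3, where the share called over all genes fell from 12.6% to 5.75% and 8.06%. Same-numbered libraries of group 1 correlated in their deviations, at 0.225 to 0.559, but wildtype replicate 3 did so more with mutant replicate 2 (0.316). With the replicate number as a block, a pairing read from these same values, 14 members were called, 2 higher (Mvd and Soat1) and 12 lower. The block added Mvk, Cyp51, Ebp, Srebf2 and Stard4 to the 7 that fell. Calls over all genes rose with that block as well, from 1766 to 2863 of 14048, or 20.4%. In the mutants of group 2 the count was 1 without wildtype replicate 3, mutant replicate 1 or mutant replicate 3, 2 without wildtype replicate 1 or 2, and 3 without mutant replicate 2 or low-yield mutant replicate 1 or 2. In those 8 fits 2.74% to 8.49% of all genes were called, against 6.27% with every library. In the low-yield mutants it was 4 without low-yield replicate 1 or 2, 5 without wildtype replicate 3 and 6 without wildtype replicate 2, where 5.79% to 7.45% of all genes were called, against 1884 of 15024 genes with every library. Over both groups it stayed between 12 and 15 whichever library was left out, with 15.1% to 21.6% of all genes called. With the block over both groups 17 members and 24.4% of all genes were called, adding Fdft1, Soat1 and Lrp8.

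**Figure D2:**
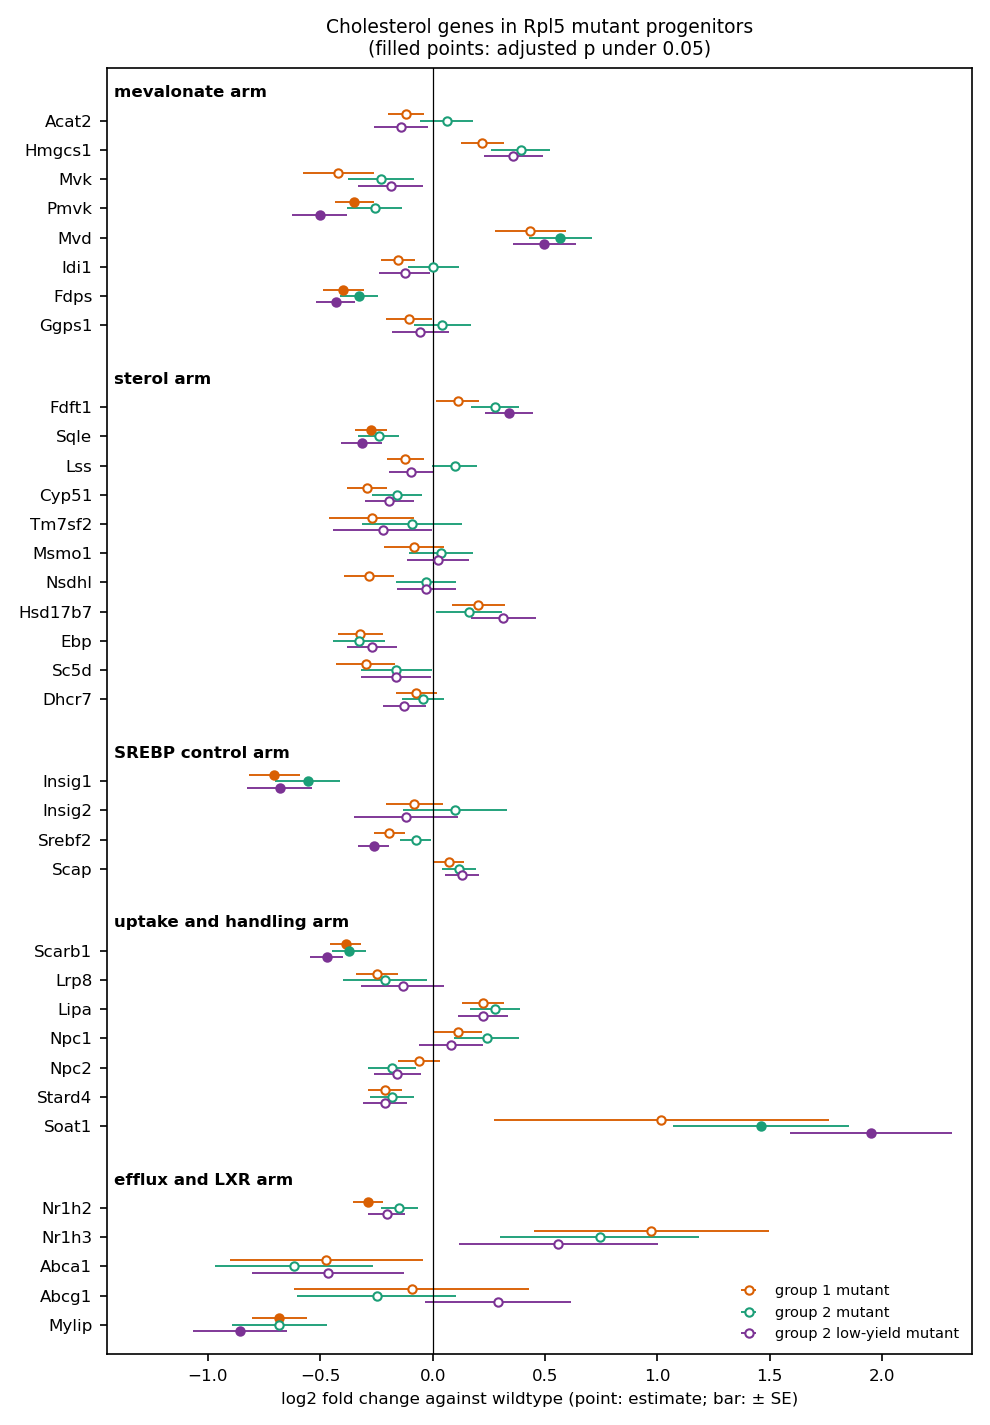
Log2 fold change against wildtype of each of the 35 tested members (points, with bars of 1 SE), by arm, in group 1 mutants, group 2 mutants and low-yield mutants; filled points passed an adjusted p of 0.05. Insig1, Scarb1 and Fdps are filled to the left of 0 in all 3 comparisons, Mvd is filled to the right in both group 2 comparisons, and Soat1 lies farthest to the right.

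The mevalonate arm held calls in both directions: of 8 enzymes, Pmvk and Fdps fell in group 1, Fdps fell and Mvd rose in the group 2 mutants, and Pmvk and Fdps fell while Mvd rose in the low-yield mutants. That is 25% of the 8 lower in group 1 and in the low-yield mutants, where 6.78% and 5.86% of all genes fell; the single calls in each direction in the group 2 mutants stand beside 2.95% lower and 3.32% higher over all genes. An early step, HMG-CoA synthase, is encoded by Hmgcs1 (chr13:119690379-119708260, plus strand). Hmgcs1 measured 21.6, 23.5 and 25.5 CPM in the wildtype and 26.1, 28.2 and 28.1 CPM in the mutant libraries of group 1. Hmgcs1 in group 2 measured 16.0, 14.5 and 14.99 CPM in the wildtype, 21.0, 22.3 and 16.6 CPM in the mutant and 18.3, 20.7 and 19.2 CPM in the low-yield mutant libraries. Mutant libraries lay above all wildtype libraries in both groups of mice, with log2 fold changes of 0.22 (SE 0.094, adjusted p = 0.153) in group 1 and 0.29 (SE 0.081, adjusted p = 0.0136) over both groups. For Hmgcs1 in group 2 they were 0.39 (SE 0.13, adjusted p = 0.0953) in the mutants and 0.36 (SE 0.13, adjusted p = 0.089) in the low-yield mutants. Hmgcs1 was called only in the fit over both groups, at 1.23 times the wildtype level, and kept that call whichever of the 12 libraries was left out. In the annotation 12.1% of its exon length lies opposite Gm48342, and the use of strand in counting is not stated.

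Mvk (chr5:114444269-114460591, plus strand) encodes mevalonate kinase, which adds the first phosphate to mevalonate. Mvk measured 9.55, 13.6 and 12.2 CPM in the wildtype and 9.23, 9.51 and 7.73 CPM in the mutant libraries of group 1. Mvk in group 2 measured 16.0, 12.7 and 15.7 CPM in the wildtype, 14.4, 10.7 and 12.6 CPM in the mutant and 12.3, 13.7 and 13.0 CPM in the low-yield mutant libraries. Group 1 mutant libraries were all below wildtype, with wildtype replicate 1 only just above mutant replicate 2, and in group 2 the groups overlapped. Mvk had log2 fold changes of -0.42 (SE 0.16, adjusted p = 0.111) in group 1 and -0.33 (SE 0.11, adjusted p = 0.0463) over both groups. For Mvk in group 2 they were -0.23 (SE 0.15, adjusted p = 0.422) in the mutants and -0.19 (SE 0.15, adjusted p = 0.458) in the low-yield mutants. Mvk with the replicate block stood at -0.41 (adjusted p = 0.0462) in group 1. For Mvk, the call over both groups ended without any 1 of the 12 libraries of the fit except group 1 wildtype replicate 1, group 2 wildtype replicate 2 and group 2 mutant replicate 1 (adjusted p = 0.0608 to 0.131) and with voom and in the legacy quasi-likelihood mode (adjusted p = 0.0572 to 0.0596).

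Pmvk (chr3:89454541-89469013, plus strand) encodes phosphomevalonate kinase, the next step. Pmvk measured 38.7, 43.6 and 46.3 CPM in the wildtype and 34.1, 34.4 and 32.4 CPM in the mutant libraries of group 1. Pmvk in group 2 measured 29.1, 21.8 and 27.8 CPM in the wildtype, 22.2, 21.4 and 22.2 CPM in the mutant and 17.4, 18.7 and 19.4 CPM in the low-yield mutant libraries. All mutant libraries of group 1 and all low-yield libraries were below wildtype, and in the group 2 mutants wildtype replicate 2 overlapped the mutant range. Pmvk had log2 fold changes of -0.35 (SE 0.086, adjusted p = 0.0213) in group 1 and -0.31 (SE 0.075, adjusted p = 0.00631) over both groups. For Pmvk in group 2 they were -0.26 (SE 0.12, adjusted p = 0.25) in the mutants and -0.50 (SE 0.12, adjusted p = 0.014) in the low-yield mutants. For Pmvk, the group 1 call ended without any 1 of wildtype replicate 2, wildtype replicate 3 or mutant replicate 3 (adjusted p = 0.076 to 0.1), and the low-yield call ended without any 1 of wildtype replicate 3, low-yield mutant replicate 1 or low-yield mutant replicate 2 (adjusted p = 0.0579 to 0.0813).

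Mvd (chr8:122433601-122443422, minus strand) encodes mevalonate diphosphate decarboxylase, which takes the product of PMVK to isopentenyl diphosphate. Mvd measured 6.73, 7.71 and 8.17 CPM in the wildtype and 8.91, 9.73 and 11.9 CPM in the mutant libraries of group 1. Mvd in group 2 measured 8.63, 8.52 and 7.80 CPM in the wildtype, 12.3, 11.9 and 12.6 CPM in the mutant and 10.9, 12.8 and 11.5 CPM in the low-yield mutant libraries. Mutant values, low-yield ones included, were all above the wildtype values of the same group of mice. Mvd had log2 fold changes of 0.43 (SE 0.16, adjusted p = 0.0958) in group 1 and 0.50 (SE 0.10, adjusted p = 0.00142) over both groups. For Mvd in group 2 they were 0.57 (SE 0.14, adjusted p = 0.0262) in the mutants and 0.50 (SE 0.14, adjusted p = 0.0301) in the low-yield mutants. Mvd with the replicate block stood at 0.43 (adjusted p = 0.0356) in group 1. For Mvd, the group 2 mutant call ended without any 1 of wildtype replicate 2, wildtype replicate 3, mutant replicate 1 or mutant replicate 3 (adjusted p = 0.0755 to 0.112), and the low-yield call ended without any 1 of wildtype replicate 2, wildtype replicate 3, low-yield mutant replicate 1, low-yield mutant replicate 2 or low-yield mutant replicate 3 (adjusted p = 0.0506 to 0.138) and fitted on the 6 compared libraries alone (adjusted p = 0.057); the call over both groups held whichever library was left out. Because these neighbouring enzymes moved apart, their ratio was taken after the values were seen and is given without a test. Per exon length, Mvd stood to Pmvk at 0.160, 0.163 and 0.163 in wildtype and 0.240, 0.261 and 0.339 in mutant libraries of group 1. The same ratio in group 2 was 0.273, 0.361 and 0.258 for wildtype libraries, 0.511, 0.513 and 0.523 for mutants and 0.577, 0.630 and 0.544 for low-yield mutants. The ratio did not overlap between genotypes in either group of mice. In group 1 and in the low-yield mutants this follows from the single genes, whose libraries already separated in opposite directions.

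Fdps (chr3:89093588-89101959, minus strand) encodes farnesyl diphosphate synthase, whose product feeds both sterols and protein prenylation. Fdps measured 70.4, 77.2 and 78.1 CPM in the wildtype and 49.6, 62.3 and 59.6 CPM in the mutant libraries of group 1. Fdps in group 2 measured 60.8, 56.9 and 63.4 CPM in the wildtype, 49.5, 45.8 and 48.9 CPM in the mutant and 43.5, 43.9 and 46.8 CPM in the low-yield mutant libraries. All mutant and low-yield libraries were below all wildtype libraries of their group, at 0.760, 0.797 and 0.741 times the wildtype level. Fdps had log2 fold changes of -0.40 (SE 0.089, adjusted p = 0.0139) in group 1 and -0.36 (SE 0.061, adjusted p = 0.000245) over both groups. For Fdps in group 2 they were -0.33 (SE 0.086, adjusted p = 0.035) in the mutants and -0.43 (SE 0.086, adjusted p = 0.00442) in the low-yield mutants. For Fdps, the group 1 call ended without any 1 of wildtype replicate 2 or wildtype replicate 3 (adjusted p = 0.0546 to 0.0684), and the group 2 mutant call ended without any 1 of the 9 libraries of the fit except low-yield mutant replicate 3 (adjusted p = 0.054 to 0.119) and without a filter on low counts and fitted on the 6 compared libraries alone (adjusted p = 0.0709 to 0.0717); the low-yield call and that over both groups held whichever library was left out. In the annotation 26.7% of its exon length is shared with Gm43738 on the same strand, so reads may have been split between them. The remaining enzymes of the arm, Acat2 (acetoacetyl-CoA thiolase), Idi1 and Ggps1 (geranylgeranyl diphosphate synthase), were called in 0 of the 6 comparisons, with log2 fold changes of -0.15 to -0.10 in group 1, 0.0026 to 0.062 in the group 2 mutants and -0.14 to -0.055 in the low-yield mutants.

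In the sterol arm 1 of 11 enzymes fell in group 1 (Sqle), 0 were called in the group 2 mutants, and 1 fell (Sqle) and 1 rose (Fdft1) in the low-yield mutants; over both groups Sqle, Cyp51 and Ebp fell. A call of 1 enzyme is 9.09% of the arm, near the 6.78% of all genes called lower in group 1 and the 5.86% lower and 6.68% higher in the low-yield mutants, while over both groups 27.3% of the arm fell, against 9.8%. The median log2 fold change of the arm was -0.27 in group 1, where 9 of 11 enzymes lay below 0, and -0.043 and -0.13 in the mutants and low-yield mutants of group 2. At the branch into sterols stands Fdft1 (chr14:63145150-63179578, minus strand), squalene synthase. Fdft1 measured 24.5, 29.1 and 29.0 CPM in the wildtype and 27.8, 31.0 and 30.5 CPM in the mutant libraries of group 1. Fdft1 in group 2 measured 31.8, 27.4 and 27.2 CPM in the wildtype, 37.3, 30.8 and 36.3 CPM in the mutant and 37.9, 35.0 and 36.3 CPM in the low-yield mutant libraries. Only the low-yield libraries were clear of the wildtype range. Fdft1 had log2 fold changes of 0.11 (SE 0.096, adjusted p = 0.496) in group 1 and 0.19 (SE 0.075, adjusted p = 0.0789) over both groups. For Fdft1 in group 2 they were 0.28 (SE 0.11, adjusted p = 0.149) in the mutants and 0.34 (SE 0.11, adjusted p = 0.0499) in the low-yield mutants. With the replicate block Fdft1 was called over both groups, at 0.19 (adjusted p = 0.0486), as it was at a mean CPM of at least 5 (adjusted p = 0.0423) and by voom (adjusted p = 0.0354). In the group 2 mutants Fdft1 was called by voom alone, at 0.36 (adjusted p = 0.0223). For Fdft1, the low-yield call ended without any 1 of the 9 libraries of the fit except wildtype replicate 1 and mutant replicate 2 (adjusted p = 0.0576 to 0.186) and with DESeq2 size factors, without a filter on low counts, in the legacy quasi-likelihood mode and fitted on the 6 compared libraries alone (adjusted p = 0.0505 to 0.0726). In the annotation 18.3% of its exon length lies opposite Ctsb, and the use of strand in counting is not stated.

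Sqle (chr15:59315077-59331192, plus strand), squalene epoxidase, carries out the first oxygenation of the sterol arm. Sqle measured 71.9, 64.7 and 66.1 CPM in the wildtype and 54.1, 54.6 and 58.9 CPM in the mutant libraries of group 1. Sqle in group 2 measured 69.1, 74.0 and 66.4 CPM in the wildtype, 57.1, 55.3 and 64.6 CPM in the mutant and 54.6, 54.3 and 59.3 CPM in the low-yield mutant libraries. Mutant and low-yield libraries were below all wildtype libraries of their group, with log2 fold changes of -0.27 (SE 0.072, adjusted p = 0.0291) in group 1 and -0.26 (SE 0.060, adjusted p = 0.00444) over both groups. For Sqle in group 2 they were -0.24 (SE 0.090, adjusted p = 0.133) in the mutants and -0.32 (SE 0.090, adjusted p = 0.0313) in the low-yield mutants. For Sqle, the group 1 call ended without any 1 of the 6 libraries (adjusted p = 0.0563 to 0.148), and the low-yield call ended without any 1 of wildtype replicate 2, low-yield mutant replicate 1 or low-yield mutant replicate 2 (adjusted p = 0.132 to 0.144) and without a filter on low counts (adjusted p = 0.0592); the call over both groups held whichever library was left out.

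Cyp51 (chr5:4081145-4104746, minus strand), lanosterol demethylase, and Ebp (chrX:8185329-8193512, minus strand), the sterol isomerase that shifts the ring double bond, were called in the fit over both groups and, with other settings, in group 1. Cyp51 measured 28.0, 30.0 and 28.0 CPM in the wildtype and 21.9, 24.2 and 24.1 CPM in the mutant libraries of group 1. Cyp51 in group 2 measured 25.2, 23.5 and 23.3 CPM in the wildtype, 20.9, 22.2 and 21.3 CPM in the mutant and 19.2, 20.4 and 23.0 CPM in the low-yield mutant libraries. Mutant and low-yield libraries lay below wildtype in both groups of mice, with log2 fold changes of -0.29 (SE 0.089, adjusted p = 0.0511) in group 1 and -0.23 (SE 0.066, adjusted p = 0.0179) over both groups. For Cyp51 in group 2 they were -0.16 (SE 0.11, adjusted p = 0.469) in the mutants and -0.19 (SE 0.11, adjusted p = 0.285) in the low-yield mutants. Cyp51 with the replicate block stood at -0.29 (adjusted p = 0.0295) in group 1, where it was also called at a mean CPM of at least 5, by DESeq2, by voom and in edgeR's legacy mode (adjusted p = 0.0378 to 0.0487). For Cyp51, the call over both groups ended without group 1 wildtype replicate 2 (adjusted p = 0.0581). Ebp measured 21.7, 20.7 and 21.9 CPM in the wildtype and 15.9, 17.0 and 18.5 CPM in the mutant libraries of group 1. Ebp in group 2 measured 21.8, 20.9 and 21.3 CPM in the wildtype, 16.2, 16.6 and 18.1 CPM in the mutant and 16.4, 17.5 and 19.0 CPM in the low-yield mutant libraries. Its libraries separated the same way, with log2 fold changes of -0.32 (SE 0.10, adjusted p = 0.0566) in group 1 and -0.32 (SE 0.071, adjusted p = 0.00269) over both groups. For Ebp in group 2 they were -0.33 (SE 0.11, adjusted p = 0.107) in the mutants and -0.27 (SE 0.11, adjusted p = 0.137) in the low-yield mutants. Ebp with the replicate block stood at -0.32 (adjusted p = 0.033) in group 1, and it was also called there at a mean CPM of at least 5 and by DESeq2 (adjusted p = 0.0478 and 0.0448). The other 7 enzymes, Lss, Tm7sf2, Msmo1, Nsdhl, Hsd17b7, Sc5d and Dhcr7, which close the ring and carry out the demethylation, reduction and desaturation steps to cholesterol, were called in 0 of the 6 comparisons. Their log2 fold changes were -0.30 to 0.20 in group 1, -0.16 to 0.16 in the group 2 mutants and -0.22 to 0.31 in the low-yield mutants.

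Of the 4 genes of SREBP control, Insig1 fell in all 3 comparisons with wildtype and Srebf2 fell in the low-yield mutants, 25%, 25% and 50% of the arm against 6.78%, 2.95% and 5.86% of all genes. Insig1 (chr5:28071363-28078662, plus strand) encodes the protein that retains SCAP and SREBP in the endoplasmic reticulum and is itself known as a target of SREBP2. Insig1 measured 28.2, 33.1 and 28.9 CPM in the wildtype and 16.0, 20.6 and 18.8 CPM in the mutant libraries of group 1. Insig1 in group 2 measured 31.3, 22.2 and 24.5 CPM in the wildtype, 18.4, 16.3 and 18.0 CPM in the mutant and 13.9, 16.2 and 18.3 CPM in the low-yield mutant libraries. No mutant or low-yield library reached the lowest wildtype library of its group, and the level was 0.614, 0.680 and 0.624 times that of wildtype. Insig1 had log2 fold changes of -0.70 (SE 0.11, adjusted p = 0.00232) in group 1 and -0.64 (SE 0.091, adjusted p = 5.39e-05) over both groups. For Insig1 in group 2 they were -0.56 (SE 0.14, adjusted p = 0.0332) in the mutants and -0.68 (SE 0.14, adjusted p = 0.00632) in the low-yield mutants. For Insig1, the group 2 mutant call ended without any 1 of wildtype replicate 1, wildtype replicate 3, mutant replicate 1, mutant replicate 2 or mutant replicate 3 (adjusted p = 0.0601 to 0.101); the other 3 held whichever library was left out.

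Insig2 encodes the second INSIG protein, with the same retention role, and was called in 0 comparisons. Insig2 measured 14.2, 13.4 and 12.3 CPM in the wildtype and 11.2, 13.7 and 12.7 CPM in the mutant libraries of group 1. Insig2 in group 2 measured 5.25, 6.96 and 6.88 CPM in the wildtype, 6.42, 6.25 and 7.75 CPM in the mutant and 4.89, 4.44 and 8.05 CPM in the low-yield mutant libraries. Its libraries overlapped between genotypes in both groups of mice, with log2 fold changes of -0.081 (SE 0.13, adjusted p = 0.723) in group 1, 0.10 (SE 0.23, adjusted p = 0.863) in the group 2 mutants and -0.12 (SE 0.23, adjusted p = 0.797) in the low-yield mutants. The ratio of Insig1 to Insig2 per exon length, taken after the values were seen and given without a test, was 2.24, 2.78 and 2.64 in wildtype and 1.61, 1.68 and 1.66 in mutant libraries of group 1. In group 2 that ratio was 6.70, 3.57 and 3.99 for wildtype libraries, 3.23, 2.93 and 2.61 for mutants and 3.19, 4.09 and 2.55 for low-yield mutants. It was lower in all mutant than in all wildtype libraries of each group of mice, while the low-yield libraries overlapped wildtype.

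Srebf2 (chr15:82147181-82205379, plus strand) encodes SREBP2 itself. Srebf2 measured 129, 146 and 144 CPM in the wildtype and 114, 125 and 128 CPM in the mutant libraries of group 1. Srebf2 in group 2 measured 226, 233 and 228 CPM in the wildtype, 216, 224 and 212 CPM in the mutant and 188, 188 and 197 CPM in the low-yield mutant libraries. Every mutant and low-yield library was below every wildtype library of its group, and the low-yield libraries were also below the mutant ones. Srebf2 had log2 fold changes of -0.19 (SE 0.071, adjusted p = 0.102) in group 1 and -0.13 (SE 0.050, adjusted p = 0.066) over both groups. For Srebf2 in group 2 they were -0.075 (SE 0.070, adjusted p = 0.609) in the mutants and -0.26 (SE 0.070, adjusted p = 0.0221) in the low-yield mutants. Srebf2 with the replicate block stood at -0.19 (adjusted p = 0.0434) in group 1. For Srebf2, the low-yield call ended without any 1 of wildtype replicate 2, wildtype replicate 3, low-yield mutant replicate 1 or low-yield mutant replicate 2 (adjusted p = 0.0577 to 0.121). Over both groups Srebf2 was called by DESeq2 (adjusted p = 0.018) and by voom (adjusted p = 0.0202). Scap, which escorts SREBP2 to the Golgi, was called in 0 comparisons. Scap measured 89.9, 90.9 and 82.3 CPM in the wildtype and 91.0, 96.0 and 89.6 CPM in the mutant libraries of group 1. Scap in group 2 measured 152, 159.5 and 141 CPM in the wildtype, 169.8, 155 and 165 CPM in the mutant and 168, 167 and 160.1 CPM in the low-yield mutant libraries, and its log2 fold changes were 0.073 (SE 0.066, adjusted p = 0.523), 0.12 (SE 0.076, adjusted p = 0.43) and 0.13 (SE 0.076, adjusted p = 0.306).

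**Figure D3:**
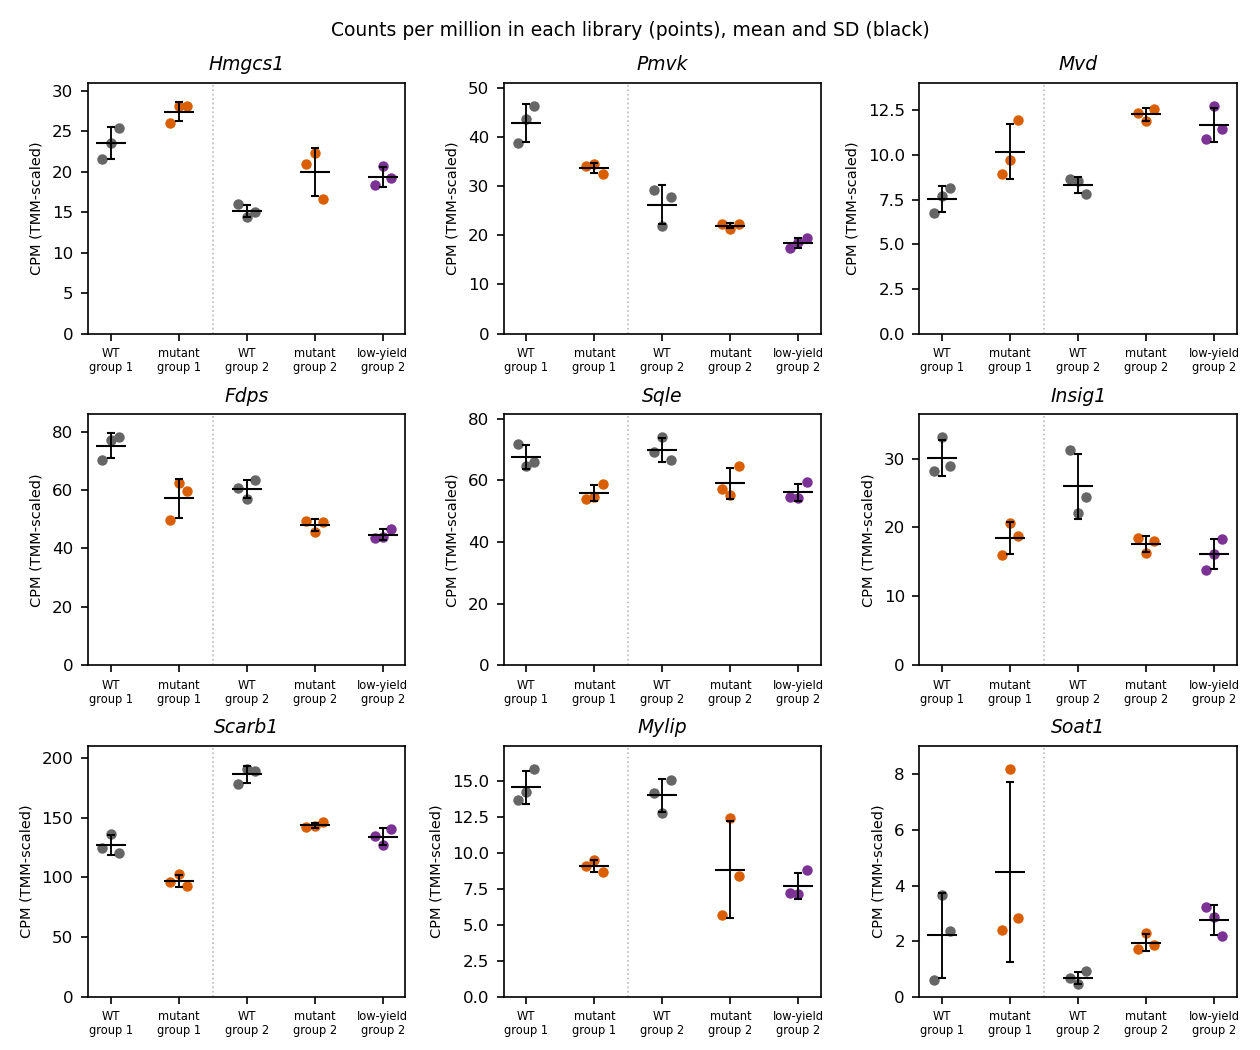
CPM of 9 members in each library (points; grey, wildtype; orange, mutant; purple, low-yield mutant) with the mean and SD of 3 libraries in black, each panel from 0; the dotted line divides the 2 groups of mice, whose levels are not compared. Pmvk, Fdps, Sqle, Insig1, Scarb1 and Mylip sit lower in mutant than in wildtype libraries, with overlap in group 2 mutants only for Pmvk, and Mvd and Hmgcs1 sit higher.

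Among 8 genes of uptake and handling, Scarb1 fell in every comparison with wildtype, Soat1 rose in both group 2 comparisons, and Lipa rose and Stard4 fell in the fit over both groups. Of the 7 tested, 14.3% fell in each of the 3 comparisons within a group of mice, and 14.3% rose in the 2 of group 2, against 2.95% to 6.78% and 3.32% to 6.68% of all genes. Scarb1 (chr5:125277087-125341094, minus strand) encodes scavenger receptor class B type 1, which takes cholesteryl ester from HDL. Scarb1 measured 124, 136 and 120.4 CPM in the wildtype and 96.1, 103 and 92.5 CPM in the mutant libraries of group 1. Scarb1 in group 2 measured 178, 191 and 189.6 CPM in the wildtype, 142, 143 and 146 CPM in the mutant and 135, 127 and 141 CPM in the low-yield mutant libraries. All mutant and low-yield libraries were below wildtype, at 0.765, 0.773 and 0.721 times its level. Scarb1 had log2 fold changes of -0.39 (SE 0.070, adjusted p = 0.00438) in group 1 and -0.38 (SE 0.051, adjusted p = 2.96e-05) over both groups. For Scarb1 in group 2 they were -0.37 (SE 0.074, adjusted p = 0.00795) in the mutants and -0.47 (SE 0.074, adjusted p = 0.000843) in the low-yield mutants, and each of these 4 calls held whichever library was left out and in every other alternative run.

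Lipa (chr19:34492318-34527474, minus strand) encodes lysosomal acid lipase, which frees cholesterol from the esters of engulfed lipoproteins. Lipa measured 29.9, 30.2 and 27.7 CPM in the wildtype and 30.2, 35.5 and 36.8 CPM in the mutant libraries of group 1. Lipa in group 2 measured 22.3, 19.8 and 22.0 CPM in the wildtype, 27.6, 25.6 and 24.5 CPM in the mutant and 27.3, 23.7 and 24.0 CPM in the low-yield mutant libraries. Wildtype replicate 2 of group 1 overlapped the mutant range, and in group 2 mutant and low-yield libraries were all above wildtype. Lipa had log2 fold changes of 0.22 (SE 0.095, adjusted p = 0.15) in group 1 and 0.25 (SE 0.070, adjusted p = 0.0169) over both groups. For Lipa in group 2 they were 0.28 (SE 0.11, adjusted p = 0.162) in the mutants and 0.22 (SE 0.11, adjusted p = 0.211) in the low-yield mutants. For Lipa, the call over both groups ended without group 1 mutant replicate 3 (adjusted p = 0.0582).

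Stard4 (chr18:33199355-33213862, minus strand) encodes a soluble carrier that moves sterol between membranes. Stard4 measured 86.1, 84.4 and 87.1 CPM in the wildtype and 69.1, 71.2 and 82.2 CPM in the mutant libraries of group 1. Stard4 in group 2 measured 69.0, 59.6 and 70.0 CPM in the wildtype, 58.8, 61.7 and 55.0 CPM in the mutant and 53.1, 55.3 and 63.0 CPM in the low-yield mutant libraries. Group 1 mutants were all below wildtype, and group 2 libraries overlapped through wildtype replicate 2. Stard4 had log2 fold changes of -0.21 (SE 0.075, adjusted p = 0.0914) in group 1 and -0.20 (SE 0.060, adjusted p = 0.0241) over both groups. For Stard4 in group 2 they were -0.18 (SE 0.097, adjusted p = 0.322) in the mutants and -0.21 (SE 0.097, adjusted p = 0.176) in the low-yield mutants. Stard4 with the replicate block stood at -0.22 (adjusted p = 0.0397) in group 1. For Stard4, the call over both groups ended without any 1 of group 1 mutant replicate 1, group 1 mutant replicate 2, group 2 wildtype replicate 3 or group 2 mutant replicate 3 (adjusted p = 0.0516 to 0.0599).

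Soat1 (chr1:156424525-156474331, minus strand) encodes the enzyme that esterifies free cholesterol for storage. Soat1 measured 0.599, 3.67 and 2.35 CPM in the wildtype and 2.41, 8.20 and 2.85 CPM in the mutant libraries of group 1. Soat1 in group 2 measured 0.664, 0.462 and 0.913 CPM in the wildtype, 1.71, 2.28 and 1.86 CPM in the mutant and 3.23, 2.86 and 2.18 CPM in the low-yield mutant libraries. In group 2 every mutant and low-yield library was above wildtype, 2.75 and 3.87 times its level from a base under 1 CPM, while in group 1 the libraries overlapped. Soat1 had log2 fold changes of 1.02 (SE 0.74, adjusted p = 0.451) in group 1 and 1.12 (SE 0.44, adjusted p = 0.0961) over both groups. For Soat1 in group 2 they were 1.46 (SE 0.39, adjusted p = 0.0387) in the mutants and 1.95 (SE 0.36, adjusted p = 0.00263) in the low-yield mutants. Soat1 with the replicate block stood at 1.01 (adjusted p = 0.00885) in group 1 and 1.11 (adjusted p = 0.00123) over both groups. Soat1 was also called over both groups by DESeq2 (adjusted p = 0.00764) and in edgeR's legacy mode (adjusted p = 0.0346). For Soat1, the group 2 mutant call ended without any 1 of the 9 libraries of the fit except low-yield mutant replicate 3 (adjusted p = 0.0505 to 0.141) and fitted on the 6 compared libraries alone (adjusted p = 0.061); the low-yield call held whichever library was left out.

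Markers of granulocytes, among other cell types, moved with Soat1 in group 2. The summed level of 9 of them (Mpo, Prtn3, Elane, Ctsg, Ngp, Lyz2, S100a8, S100a9 and Prg2, none at 0 in a whole group) was 91.0, 686 and 648 CPM in wildtype and 217, 1302 and 873 CPM in mutant libraries of group 1. That sum in group 2 was 26.4, 13.9 and 15.9 CPM in wildtype, 94.0, 196 and 104 CPM in mutant and 284, 147 and 140.1 CPM in low-yield libraries. Of the markers tested, 0 of 9 were called in group 1, 6 of 8 rose in the group 2 mutants and 8 of 8 rose in the low-yield mutants. In these comparisons 5.79%, 3.32% and 6.68% of all genes were called higher. In group 2 the wildtype libraries were the lowest in both the marker sum and Soat1. They were also the lowest there in the megakaryocyte and endothelial sums given above, so the pattern was not particular to granulocytes. The summed level of 10 macrophage markers was 0.949 to 12.6 CPM over all libraries, with Cd5l at 0 in all of them. The part of any of these cell types in the Soat1 result was not tested.

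**Figure D4:**
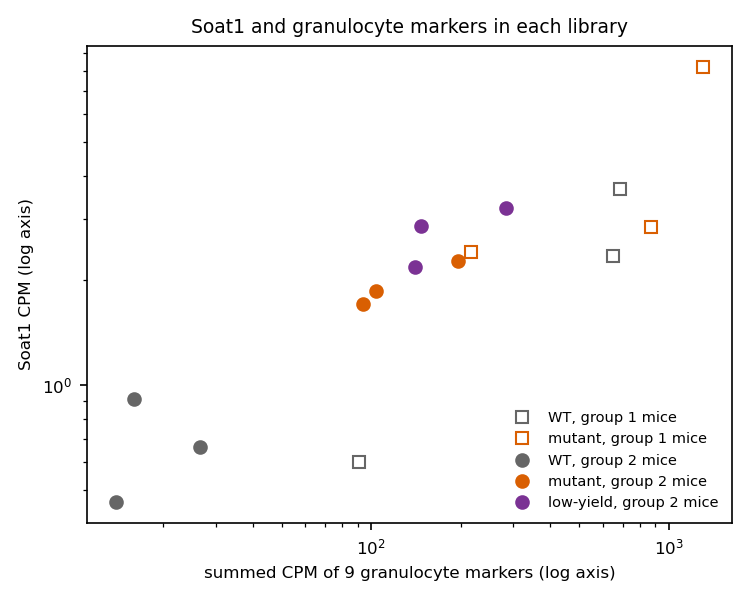
Soat1 CPM against the summed CPM of 9 granulocyte markers in each of the 15 libraries, both on log axes (open squares, group 1; filled circles, group 2). In group 2 the wildtype libraries hold the lower left corner and the mutant and low-yield libraries lie above and to the right of them.

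The remaining tested genes of uptake and handling were called in 0 comparisons: Lrp8, a lipoprotein receptor, and Npc1 and Npc2, which pass cholesterol out of the lysosome. Their log2 fold changes were -0.25 to 0.11 in group 1, -0.21 to 0.24 in the group 2 mutants and -0.16 to 0.082 in the low-yield mutants. Lrp8 was lower in all group 1 mutant than wildtype libraries, at -0.25 (SE 0.095, adjusted p = 0.113) on the log2 scale, and Npc1 was higher in all of them, at 0.11 (SE 0.11, adjusted p = 0.55). Over both groups Lrp8 stood at -0.23 (SE 0.092, adjusted p = 0.0865), and with the replicate block it was called, at -0.24 (SE 0.076, adjusted p = 0.0259).

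In the efflux and LXR arm the receptor Nr1h2 fell in group 1 and over both groups, Mylip fell in group 1, in the low-yield mutants and over both groups, and the pumps themselves were not called. The 5 genes gave 40% lower in group 1, 0% in the group 2 mutants and 20% in the low-yield mutants, against 6.78%, 2.95% and 5.86% of all genes. Mylip (chr13:45389742-45412022, plus strand) encodes a ubiquitin ligase that marks lipoprotein receptors for degradation, and its gene is a known LXR target. Mylip measured 13.7, 14.2 and 15.9 CPM in the wildtype and 9.13, 9.53 and 8.66 CPM in the mutant libraries of group 1. Mylip in group 2 measured 14.2, 12.8 and 15.1 CPM in the wildtype, 5.71, 12.4 and 8.44 CPM in the mutant and 7.23, 7.12 and 8.79 CPM in the low-yield mutant libraries. Every mutant and low-yield library was below all wildtype libraries of its group, with mutant replicate 2 of group 2 close to the lowest wildtype library. Mylip had log2 fold changes of -0.68 (SE 0.12, adjusted p = 0.00452) in group 1 and -0.68 (SE 0.12, adjusted p = 0.000506) over both groups. For Mylip in group 2 they were -0.68 (SE 0.21, adjusted p = 0.0697) in the mutants and -0.86 (SE 0.21, adjusted p = 0.0144) in the low-yield mutants. For Mylip, the low-yield call ended without any 1 of wildtype replicate 3, low-yield mutant replicate 1 or low-yield mutant replicate 2 (adjusted p = 0.0577 to 0.0666). Without mutant replicate 2, the group 2 mutant value was -0.97 (adjusted p = 0.0133). Mylip was also called there without a low-count filter, by DESeq2, by voom and with the replicate block (adjusted p = 0.014 to 0.0496).

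Nr1h2 (chr7:44549616-44553951, minus strand) encodes LXRβ. Nr1h2 measured 64.9, 66.6 and 69.1 CPM in the wildtype and 53.3, 55.6 and 55.4 CPM in the mutant libraries of group 1. Nr1h2 in group 2 measured 88.2, 89.8 and 81.6 CPM in the wildtype, 81.1, 76.4 and 76.4 CPM in the mutant and 80.3, 71.0 and 73.8 CPM in the low-yield mutant libraries. Mutant and low-yield libraries were below wildtype in both groups of mice by a small margin, at 0.819, 0.902 and 0.868 times its level. Nr1h2 had log2 fold changes of -0.29 (SE 0.066, adjusted p = 0.0151) in group 1 and -0.22 (SE 0.053, adjusted p = 0.00611) over both groups. For Nr1h2 in group 2 they were -0.15 (SE 0.082, adjusted p = 0.333) in the mutants and -0.21 (SE 0.082, adjusted p = 0.119) in the low-yield mutants. For Nr1h2, the group 1 call ended without any 1 of wildtype replicate 2, wildtype replicate 3 or mutant replicate 3 (adjusted p = 0.0508 to 0.0612). The other receptor, Nr1h3, and the pumps Abca1 and Abcg1 were among the least abundant members and were called in 0 comparisons. As an alternative, voom called Nr1h3 over both groups, at 0.92 (adjusted p = 0.0455). Nr1h3 had log2 fold changes of 0.97 (SE 0.52, adjusted p = 0.26), 0.74 (SE 0.44, adjusted p = 0.381) and 0.56 (SE 0.44, adjusted p = 0.469) in group 1, the group 2 mutants and the low-yield mutants. Abca1 had -0.47 (SE 0.43, adjusted p = 0.521), -0.62 (SE 0.35, adjusted p = 0.358) and -0.46 (SE 0.34, adjusted p = 0.421) in the same order. Abcg1 had -0.094 (SE 0.52, adjusted p = 0.933), -0.25 (SE 0.35, adjusted p = 0.759) and 0.29 (SE 0.32, adjusted p = 0.621). The 95% interval of Abca1 in the group 2 mutants, -1.37 to 0.13, included both 0 and the value of Mylip, as did that of Abcg1.

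The low-yield libraries were also set directly against the remaining mutants of group 2. By edgeR's quasi-likelihood test 0 of 35 members were called, and 0% of all genes; at an unadjusted p under 0.05 there was 1 member, Srebf2, and 480 of 15024 genes. DESeq2 and voom likewise called 0 members. The members' log2 differences ran from -0.25 to 0.54 with a median of -0.056, and 24 of 35 were below 0, against 48.9% below 0 over all genes. Srebf2 differed by -0.19 (95% interval -0.34 to -0.039), Insig1 by -0.12 (95% interval -0.44 to 0.19), Mvd by -0.071 (95% interval -0.36 to 0.22), and Soat1 by 0.49 (95% interval -0.15 to 1.14). Low-yield libraries were below all mutant libraries for 5 members (Pmvk, Lss, Dhcr7, Srebf2 and Scarb1) and above for 0, where 4.15% and 4.07% of all genes separated that way.

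Whether the mutant effect differed between the 2 groups of mice was tested as an interaction over 12 libraries, group 2 effect minus group 1 effect. By edgeR's quasi-likelihood test 0 of 35 members were called, with 0 at an unadjusted p under 0.05, and 3 of 15954 genes (0.0188%) were called; DESeq2 and voom called 0 members. The differences were above 0 for 30 of 35 members and below 0 for 14.3%, against 45.7% below 0 over all genes. Their median was 0.14 against 0.019 over all genes, and it was smaller without group 1 mutant replicate 1, as given below. Each interval of the genes described here included 0. Insig1 differed by 0.17 (95% interval -0.22 to 0.56), Mvk by 0.20 (95% interval -0.27 to 0.68), Mvd by 0.15 (95% interval -0.28 to 0.58) and Scarb1 by 0.032 (95% interval -0.19 to 0.26). A member called in one group of mice and not in the other was thus not shown to differ between them. The kind of RNA and the group of mice cannot be told apart in this comparison.

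Outside the 36 members, 49 further genes of the pathway were examined, of which 47 were tested: other sterol enzymes and electron donors, the isoprenoid branch, SREBP processing, sterol transfer, and LXR partners. In group 1, 6 of 47 fell and 0 rose, so that 12.8% were called, close to the 12.6% of all genes (6.78% lower). In the group 2 mutants 6 fell and 0 rose (12.8% lower, against 2.95% of all genes). In the low-yield mutants 7 fell and 3 rose (14.9% and 6.38%, against 5.86% and 6.68%). Over both groups 9 fell and 0 rose, or 19.1% called, against 19.6% of all genes (9.8% lower). Their median log2 fold change was -0.045, -0.052, -0.061 and -0.051 in that order. Named here are those called against wildtype with a log2 change of at least 0.5 in size. Srebf1, which encodes the SREBP1 factors of fatty acid synthesis, stood at 199, 210.0 and 205 CPM in wildtype and 113, 127 and 119.9 CPM in mutant libraries of group 1. Srebf1 fell in each, with -0.77 (SE 0.064, adjusted p = 3.45e-05) in group 1, -0.47 (SE 0.084, adjusted p = 0.00394) in the group 2 mutants and -0.66 (SE 0.084, adjusted p = 0.000233) in the low-yield mutants. Abcg4, a sterol exporter of the ABCG family, fell in each as well, with -0.63 (SE 0.10, adjusted p = 0.00277) in group 1, -0.42 (SE 0.10, adjusted p = 0.0257) in the group 2 mutants and -0.61 (SE 0.10, adjusted p = 0.00155) in the low-yield mutants. Cyb5r3, the cytochrome b5 reductase that supplies electrons to sterol enzymes, had -0.44 (SE 0.059, adjusted p = 0.000972) in group 1, -0.42 (SE 0.091, adjusted p = 0.0128) in the group 2 mutants and -0.60 (SE 0.091, adjusted p = 0.00071) in the low-yield mutants.

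In the low-yield mutants 3 more genes were called at that size: Mbtps2, the site-2 protease of SREBP, at 0.53 (SE 0.11, adjusted p = 0.00494), Rxra, the RXRα partner of LXR, at -0.51 (SE 0.11, adjusted p = 0.00782), and Hsd3b7, an enzyme of oxysterol and bile acid metabolism, at 0.79 (SE 0.18, adjusted p = 0.00797). In group 1 these had 0.17 (SE 0.11, adjusted p = 0.338), -0.28 (SE 0.091, adjusted p = 0.0683) and 0.33 (SE 0.24, adjusted p = 0.434), and in the group 2 mutants 0.29 (SE 0.11, adjusted p = 0.137), -0.25 (SE 0.11, adjusted p = 0.21) and 0.37 (SE 0.18, adjusted p = 0.277). In the isoprenoid branch, which makes dolichol, ubiquinone and the prenyl groups of proteins, 0 of 11 genes were called in group 1, 1 fell in the group 2 mutants, and 1 fell and 1 rose in the low-yield mutants, a share of 0% to 18.2%. Of 9 genes of SREBP processing and sterol-regulated degradation, 3 fell in each of the 3 comparisons with wildtype (33.3%), and 1 rose in the low-yield mutants (11.1%). Over all genes 6.78%, 2.95% and 5.86% were called lower in these comparisons, and 6.68% higher in the low-yield mutants.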

How the data were processed

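Expected counts per gene were deposited by the authors as 2 tables, 1 for each group of mice, not normalised. They were rounded to whole numbers and tested as counts. The submitters' processing notes name cutadapt 2.3, FastQC 0.11.8, STAR 2.7.8a, RSEM 1.3.3, MultiQC 1.7 and build GRCm38; the labels name RNeasy Micro extraction, 151 bp paired-end reads and BCL Convert 3.9.3. Which annotation release was used, and whether strand was, are not given in the sources used here, so overlapping genes may share reads. Rows of reporter sequences (5 and 4, with 1 and 4 counts) were left out. Coordinates and exon lengths are from GENCODE M21 for GRCm38, which held 99.5% of the 55487 gene IDs.

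Genes were tested with edgeR 4.0.16 (R 4.3.3): TMM scaling, filterByExpr, robust quasi-likelihood fits and two-sided F tests, Benjamini-Hochberg over all genes tested, threshold 0.05. Group 1 (6 libraries) and group 2 (9 libraries) were fitted apart; 12 libraries gave the fit over both groups and the interaction. Alternatives were DESeq2 1.42.0 and its size factors, voom of limma 3.58.1 with quality weights, other filters, the replicate block, Acat2 and Acat3 summed, the 6 compared libraries alone, each library left out, and, chosen after seeing the data, edgeR's legacy mode. Same-numbered wildtype and mutant libraries of group 1 correlated in their deviations from the group means at 0.559, 0.241 and 0.225, so the blocked value stands beside each result in group 1 or over both groups whose call it changes. The fits were tested on simulated data. Members, lists and tests were chosen with earlier results of these data known. Described in full are members called in at least 1 of 6 comparisons, and other pathway genes called against wildtype with a log2 change of at least 0.5. An erythroid marker of the list used is not reported here. Depth limits precision at low counts, and intervals are 95% intervals of the fit.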

Additional observations from a re-analysis of the deposited data

How the results depend on the processing

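No member named above changed direction where it was called, in any alternative run. The count of members called in group 1 was 7, between 7 and 14 over 8 other settings (14 with the replicate block) and 3 to 6 with 1 library left out; 3 of the 7 calls held throughout. In the group 2 mutants it was 5, between 3 (the 6 compared libraries alone, 5.37% of all genes called) and 7 (voom, 12.8%), and 1 to 5 with 1 library left out, where 1 call (Scarb1) held throughout. In the low-yield mutants it was 10, between 8 and 10, and 4 to 10 with 1 library left out. Over both groups it was 14, between 14 and 17, and 12 to 15. Over the same other settings the share of all genes called was 7.57% to 20.6% in group 1, 3.69% to 12.8% in the group 2 mutants, 7.16% to 22.3% in the low-yield mutants and 12% to 30.7% over both groups. Low-yield against other mutants and the interaction gave 0 in every setting. The cause of these shifts was not tested. Fits that leave some libraries out also hold fewer libraries. The members' median in the group 2 mutants was -0.026 without mutant replicate 3, and that of the interaction was 0.041 without group 1 mutant replicate 1.

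In group 2 not every same-numbered pair correlated above 0.1, the level asked of each pair here, so the numbers were not taken to pair the libraries. Same-numbered correlations were 0.0156 to 0.315 for mutant and -0.103 to 0.133 for low-yield mutant with wildtype, and 4 of 6 and 2 of 6 libraries correlated best with their own number, against 4 of 6 in group 1. The replicate block there gave 6 members in the mutants (8.71% of all genes) and 10 in the low-yield mutants (15.5%); over both groups, which hold the libraries of group 1 too, it gave 17 (24.4%). For the 17 members described in full, 90 calls were lost and 32 gained over all settings and comparisons. The other 18 tested members gained 3, all over both groups: Nr1h3 with voom (adjusted p = 0.0455), and Lrp8 with the replicate block (adjusted p = 0.0259) and without group 2 mutant replicate 1 (adjusted p = 0.00783). Nr1h3, Abca1, Abcg1 and Soat1 had the lowest median counts of the tested members, between 25 and 137, and Vldlr was not testable.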

Other observations

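Levels per exon length were also summed over the genes of an arm, after the values were seen and with no test; each sum is led by its few most abundant genes. The mevalonate arm summed to 108, 118 and 115 CPM per kb in wildtype and 98.9, 101 and 101 in mutant libraries of group 1. For the mevalonate arm in group 2 the sums were 80.4, 71.5 and 82.9 (wildtype), 80.9, 74.1 and 73.4 (mutant) and 65.0, 70.4 and 72.2 (low-yield mutant). The sterol arm summed to 59.4, 57.9 and 58.5 CPM per kb in wildtype and 48.7, 52.4 and 54.4 in mutant libraries of group 1. For the sterol arm in group 2 the sums were 58.7, 58.0 and 55.1 (wildtype), 55.2, 52.3 and 55.5 (mutant) and 52.8, 52.5 and 55.2 (low-yield mutant). The SREBP control arm summed to 43.2, 47.1 and 43.9 CPM per kb in wildtype and 36.5, 40.9 and 39.6 in mutant libraries of group 1. For the SREBP control arm in group 2 the sums were 63.5, 63.1 and 60.6 (wildtype), 60.7, 59.2 and 59.8 (mutant) and 54.6, 55.0 and 57.2 (low-yield mutant). The uptake and handling arm summed to 49.3, 51.0 and 49.7 CPM per kb in wildtype and 40.9, 46.5 and 46.0 in mutant libraries of group 1. For the uptake and handling arm in group 2 the sums were 49.9, 49.1 and 51.1 (wildtype), 44.4, 43.3 and 42.4 (mutant) and 43.6, 40.2 and 42.3 (low-yield mutant). The efflux and LXR arm summed to 24.2, 25.3 and 26.5 CPM per kb in wildtype and 19.2, 20.9 and 20.1 in mutant libraries of group 1. For the efflux and LXR arm in group 2 the sums were 31.8, 31.6 and 30.3 (wildtype), 27.0, 27.9 and 26.3 (mutant) and 27.6, 24.7 and 25.7 (low-yield mutant). In group 1 all 5 sums were lower in every mutant than in every wildtype library. In group 2 that held for the uptake and handling arm, led by Scarb1, and the efflux and LXR arm, led by Nr1h2, in mutant and low-yield libraries, and for the SREBP control arm, led by Srebf2, in low-yield libraries. The mevalonate and sterol sums of group 2 overlapped between genotypes.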
